A study of Mus musculus with 6 samples.

Results

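Axon guidance is carried by a small number of ligand and receptor families that steer growing axons by attraction or repulsion: semaphorins with plexins and neuropilins, Slits with Robo receptors, netrins with Dcc, Neo1 and the Unc5 receptors, and ephrins with Eph receptor tyrosine kinases. The members were chosen by gene name, as the mouse genes of these families whose level reached 1 TPM (a transcript's share of the library, scaled for its length) in 3 or more of the 6 samples. The names matched 70 genes, and 67 of them passed, of 16411 genes that passed the same filter. The 3 that did not pass were Epha6 (0.33 to 0.79 TPM), Ntn5 (0.18 to 0.55 TPM) and Plxnb3 (0.15 to 0.19 TPM). The lowest member that passed was Sema3e, at 1.27, 1.06 and 1.28 TPM in Tmem216-/- samples and 1.09, 1.45 and 0.97 TPM in wild type samples.

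The 6 samples are total RNA from C57BL/6 mouse embryos at embryonic day 12, 3 of the genotype Tmem216-/- and 3 wild type. The source is labelled as embryo only; the part of the embryo taken, the litters, and the way the allele was made are not given. Tmem216 codes for a protein of the transition zone, the gate at the base of the primary cilium. Its level was 2.25, 0.51 and 1.39 TPM in Tmem216-/- and 31.0, 30.7 and 17.4 TPM in wild type (replicates 1, 2 and 3, the order used throughout), a log2 fold change of -3.55 (SE 0.34, limma adjusted p = 0.0266). That call was lost in 8 of 17 alternative fits, where the log2 fold change lay between -4.31 and -3.25 and the direction was the same.

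These ligands are released or displayed by tissue along an axon's path, and many also act outside the nervous system. At midgestation the floor plate, the ventral midline of the spinal cord, is a source of netrin-1 and Slits. Class 3 semaphorins are secreted largely by mesenchyme and by some neurons, and ephrins mark boundaries between neighbouring cell groups. In the blood vessels, Efnb2 marks arteries and Ephb4 marks veins. The primary cilium is needed for Hedgehog signalling, which patterns the floor plate.

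All 4 ligand and receptor systems were expressed in both genotypes, and none of the 67 members passed the test between them. The members held 1792, 1750 and 1731 TPM in Tmem216-/-, against 1724, 1592 and 2162 TPM in wild type, when summed in each sample. In limma, which fits all 16411 genes at once on log2(TPM + 1), 0 of 67 members passed an adjusted p of 0.05, where 0.104% of all genes tested did (0.0975% higher and 0.00609% lower in Tmem216-/-). At an unadjusted p of 0.05 the count was also 0 of 67, where 4.46% of all genes did; edgeR and DESeq2 were not run, since the values are not counts. The members' log2 fold changes ran from -0.55 to 0.77 with a median of -0.03, and the median over all genes tested was -0.01. There were 29 members with a higher and 38 with a lower estimate in Tmem216-/-.

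The precision sets what this comparison could show. For 62 of the 67 members the 95% interval of the difference lay within a 2-fold change in either direction, on the log2(TPM + 1) scale. The share was 92.5% of members, against 84.9% of all genes. The 5 with wider intervals were Epha5, Epha8, Sema3c, Sema7a and Slit1. The half-width of the interval had a median of 0.39 and ran from 0.20 to 1.44. The labels do not say that replicates are separate embryos. The p values therefore reflect how these samples vary, and part of that variation could be technical. Y-linked genes, given below, were high in some of the samples of each group and barely detected in the rest. The samples of a group were therefore not all repeats of the same embryo. In whole tissue, fewer cells of a type and less RNA per cell cannot be told apart.

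**Figure D1:**
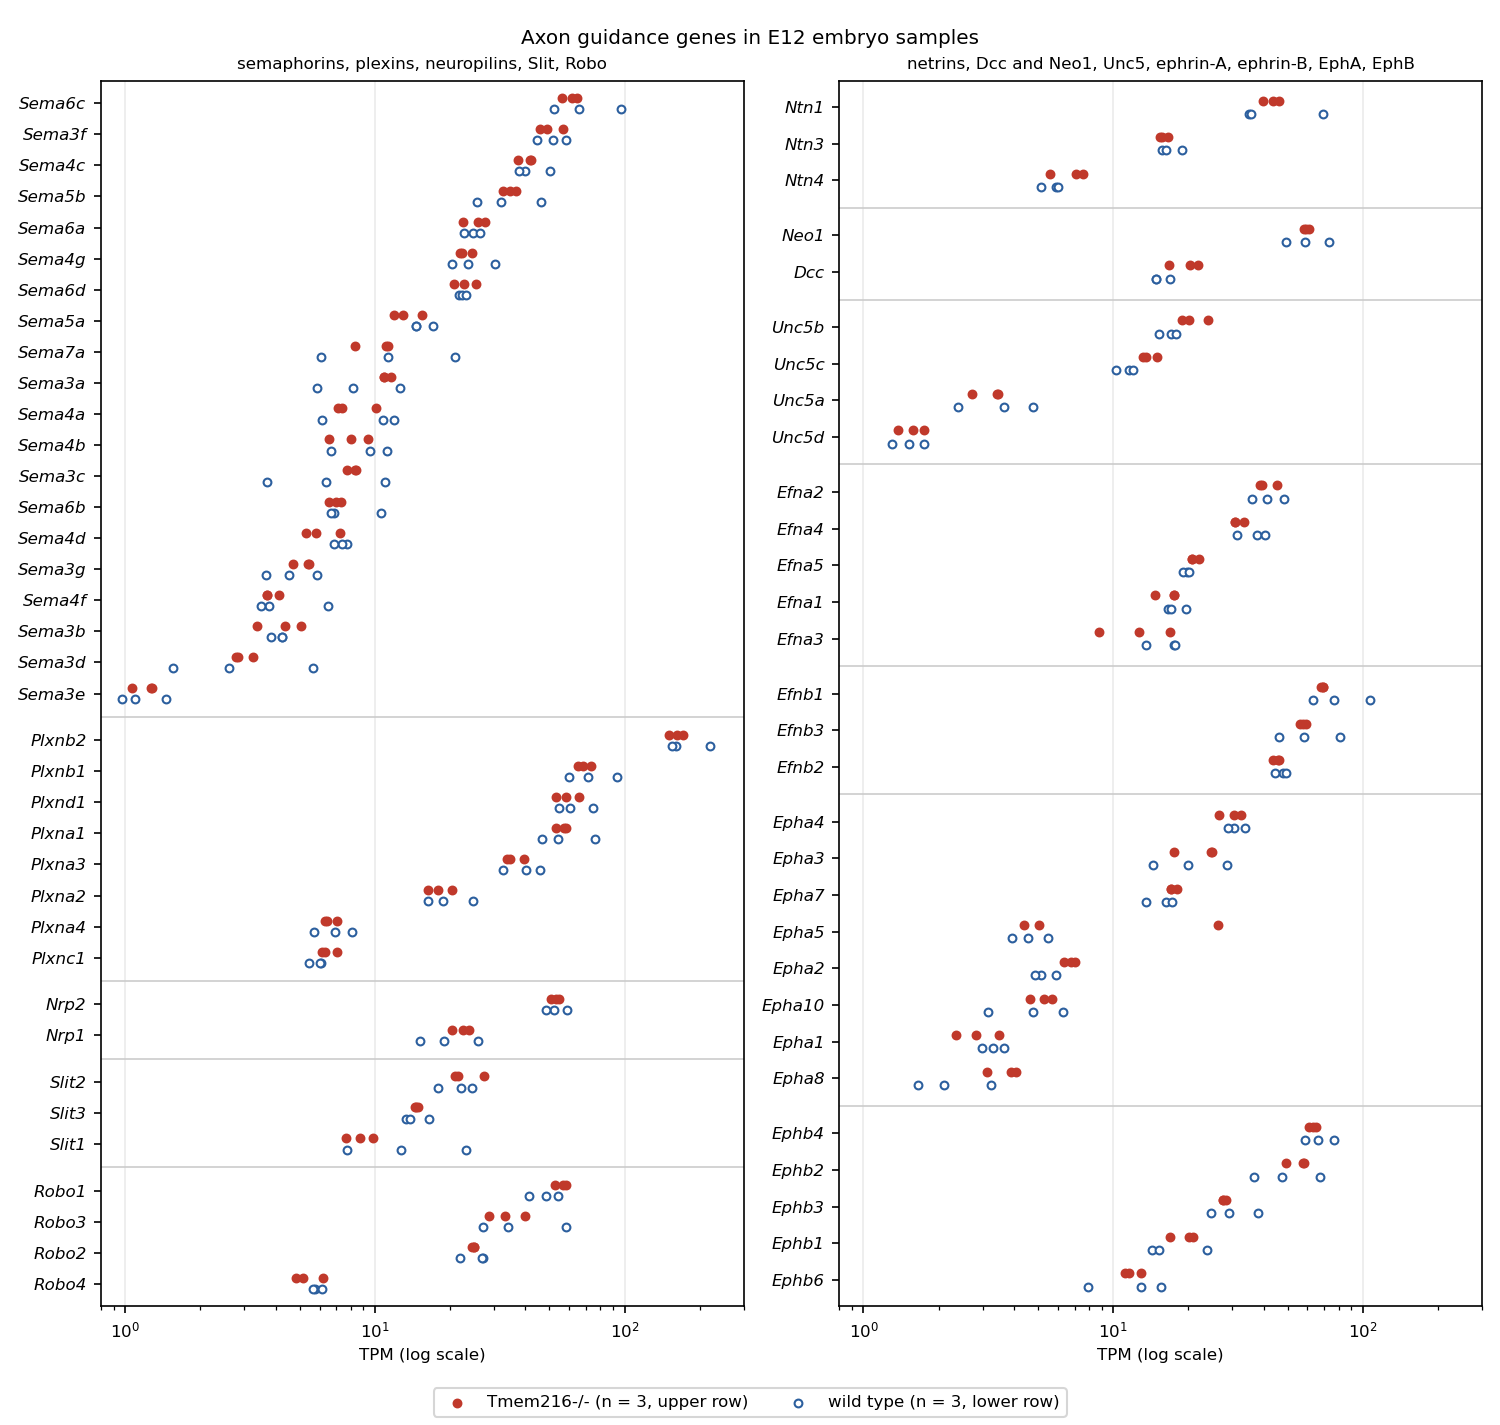
TPM of each of the 67 members in each sample, on a log axis, grouped by family; filled points are the 3 Tmem216-/- samples and open points the 3 wild type samples of the same gene. Plxnb2 is highest, between 151 and 219 TPM, and Epha5 has 1 Tmem216-/- sample at 26.3 TPM far from its other 5.

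Marker lists of other tissues were measured in the same samples, and heart muscle was the list with genes that passed. The summed level of 12 heart muscle markers was 888, 2334 and 1415 TPM in Tmem216-/-, against 50.4, 63.5 and 40.8 TPM in wild type, and all 12 rose. All 12 estimates were higher in every alternative fit. The groups of all 12 did not overlap, against 4.75% of all genes in that direction, so leaving out 1 sample could not turn an estimate. With no filter or without wild type replicate 1 or 3, 0 passed, and 2 passed without wild type replicate 2. Without Tmem216-/- replicate 3, 2 and 1 the numbers that passed were 1, 7 and 11. The summed level of 8 caudal and hindlimb markers was 46.9, 17.8 and 49.9 TPM, against 189, 164 and 85.7 TPM. All 8 had lower estimates and none passed over all genes. A limma unadjusted p under 0.05 was reached by 6 of the 8, against 4.46% of all genes. The groups of 4 did not overlap, all lower in Tmem216-/-, as for 4.83% of all genes. Zeros were listed only in Tmem216-/-. Hoxc10 was 1.12, 0.13 and 0 TPM there, against 24.8, 34.4 and 7.96 TPM in wild type. Hoxc11 was 0, 0 and 0.18 TPM in Tmem216-/-, against 12.6, 4.34 and 5.43 TPM in wild type. Of 9 forebrain markers 7 were lower and 2 higher, and none passed. Their sums were 208, 157 and 181 TPM in Tmem216-/-, against 234, 207 and 251 TPM in wild type. A limma unadjusted p under 0.05 was reached by 5 lower and 1 higher, where 4.46% of all genes did. The groups of 5 lower and 1 higher did not overlap, where 9.57% of all genes did not. Of 14 neuron markers 7 were higher and 7 lower. The tally was 14 higher and 0 lower without wild type replicate 3, and 5 and 9 without wild type replicate 2. Map2 alone, higher, had a limma unadjusted p under 0.05 and groups that did not overlap, against 4.46% and 9.57% of all genes. The neuron sums were 1965, 2313 and 2091 TPM in Tmem216-/-, against 2116, 1570 and 2970 TPM in wild type. No neuron marker was listed at 0. Of 6 motor neuron markers 5 were tested, all with lower estimates, none passing and none at 0. Of these 5, 2 had a limma unadjusted p under 0.05, against 4.46% of all genes. These were Lhx3 and Lhx4, whose groups did not overlap, both lower, against 4.83% of all genes in that direction. The 6 summed to 40.3, 27.4 and 30.5 TPM in Tmem216-/-, against 29.6, 41.7 and 43.5 TPM in wild type. Most of that sum was Isl1, with a log2 fold change of -0.01. Those of Lhx3, Lhx4, Mnx1 and Slc18a3 ran from -0.72 to -0.42. Y-linked genes had a mean log2(TPM + 1) of 0.060, 4.07 and 0.024 in Tmem216-/-, against 3.59, 4.51 and 0.018 in wild type, so wild type replicate 3 was the only wild type sample near 0. With sex as a covariate 0 members passed, as in every other fit. The members' median log2 fold change was then -0.089, against -0.027 without the covariate. The semaphorins then had 7 higher and 13 lower estimates, against 9 and 11. The part of these tissues in the members' values was not tested.

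The members' levels spread more among the wild type samples than among the Tmem216-/- samples. The median SD of log2(TPM + 1) over the members was 0.10 among the 3 Tmem216-/- samples and 0.22 among the 3 wild type samples, and 51 of 67 members had the smaller SD in Tmem216-/-. Over all genes tested these medians were 0.12 and 0.24, and 72.9% of genes had the smaller SD in Tmem216-/-. Wild type replicate 3 held the highest value of the 6 samples for 39 members, or 58.2%, against 35.3% of all genes. Wild type replicate 2 held the lowest value for 30 members, or 44.8%, against 25.6% of all genes. In 36 members, or 53.7%, every Tmem216-/- value lay inside the wild type range, against 41.1% of all genes.

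The order replicate 3, then 1, then 2 among the wild type samples was shown by 37 members, or 55.2%, against 32.8% of all genes. The sum of the 14 neuron markers had the same order, and so did that of 10 neural progenitor markers, at 2014, 2312 and 2137 TPM in Tmem216-/- and 2032, 1756 and 2396 TPM in wild type. The reverse order, replicate 2, then 1, then 3, was shown by 10 members, or 14.9%, against 26.8% of all genes. These 10 were Sema3a, Sema3c, Sema3d, Sema3e, Nrp1, Unc5c, Epha3, Epha4, Epha5 and Epha7. The sum of 8 mesenchyme markers was 1157, 1033 and 1007 TPM in Tmem216-/-, against 1060, 1018 and 1103 TPM in wild type. Among the wild type samples that sum was again highest in replicate 3 and lowest in replicate 2, over a narrow range. The single mesenchyme markers differed in order. Twist1, Col1a1 and Col1a2 followed the sum, Lum, Dcn and Col3a1 had the reverse order, and Pdgfra and Prrx1 had neither. Among the wild type samples, the sum of 6 liver markers had the reverse order. It was 836, 87.3 and 123 TPM in Tmem216-/- and 1581, 2028 and 181 TPM in wild type. As single genes, Afp and Alb had that order. From highest to lowest, Ahsg, Fgb and Apoa1 ran replicate 1, 2, 3, and Ttr ran replicate 1, 3, 2. All 6 had lower estimates in Tmem216-/-, none passed and none was listed at 0. The sum of 9 red blood cell markers had it too, at 56605, 27860 and 49165 TPM in Tmem216-/- and 43307, 44126 and 36884 TPM in wild type, with 5 higher and 4 lower estimates and none passing. The part of these cell types in the members' order was not tested.

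**Figure D2:**
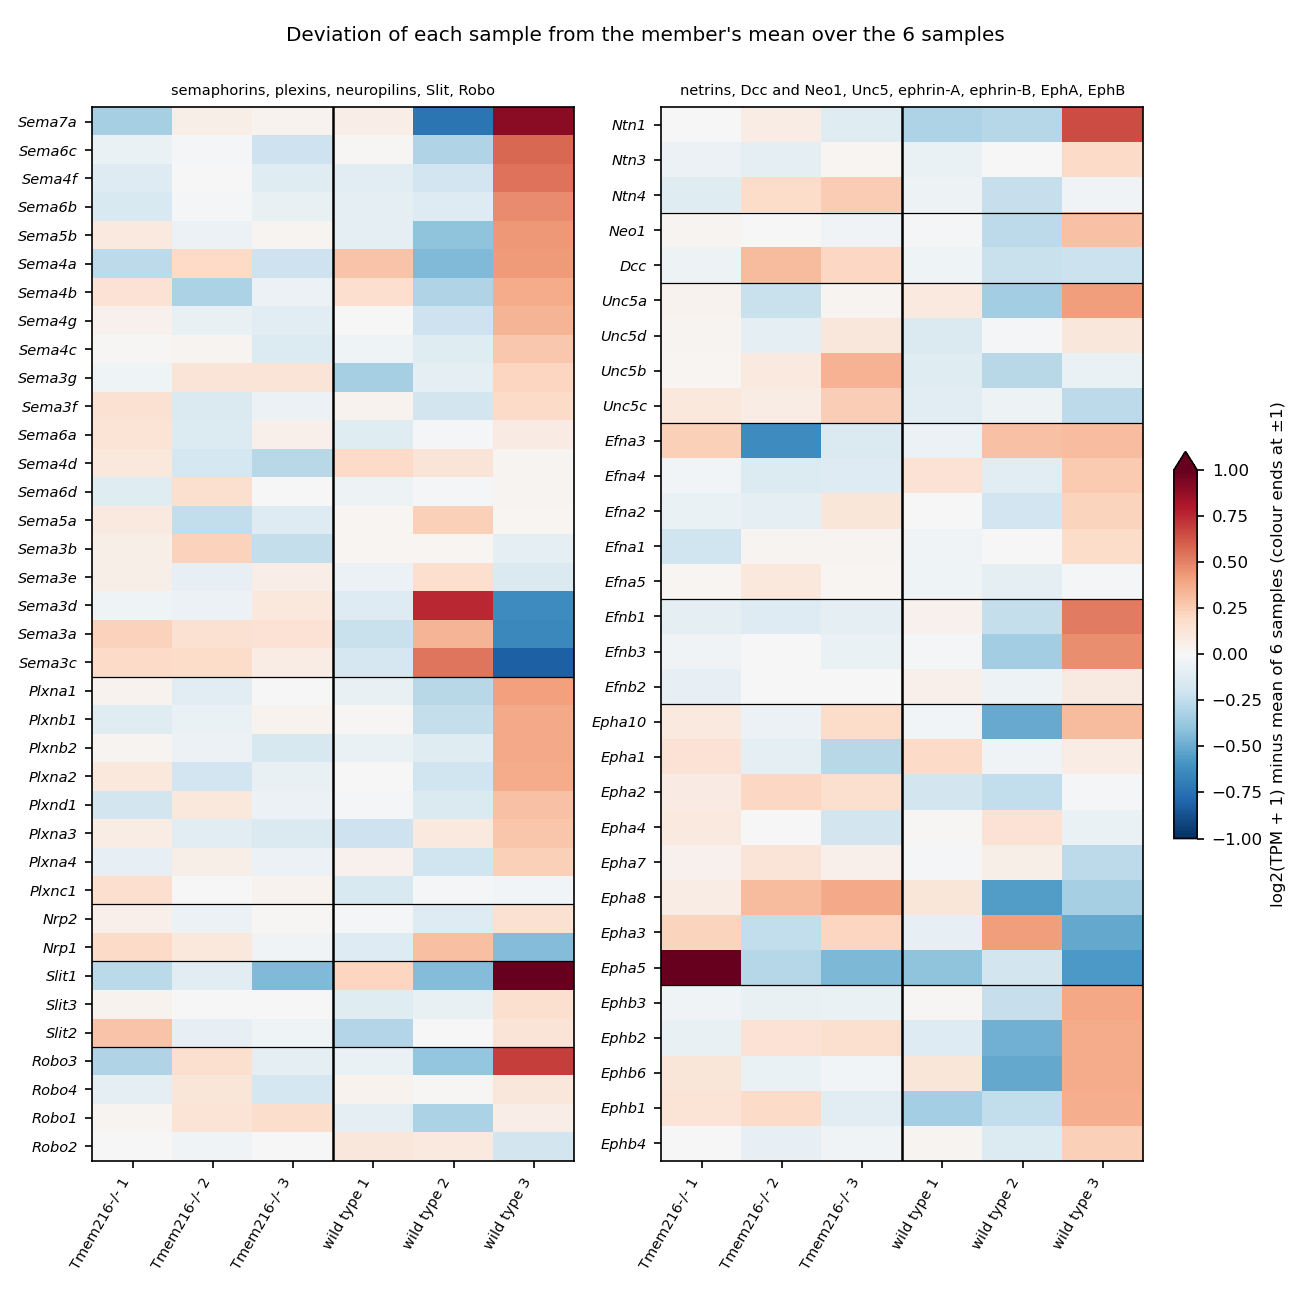
Deviation of each sample's log2(TPM + 1) from the member's own mean over the 6 samples, Tmem216-/- samples left of the line and wild type samples right of it, members sorted within each family by wild type replicate 3. Red is above and blue below the mean; wild type replicate 3 was highest for 39 of the 67 members, while Sema3a, Sema3c and Sema3d were lowest there, and the colour of Epha5 in Tmem216-/- replicate 1 and of Slit1 in wild type replicate 3 is at the end of the scale.

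Leaving out either of these wild type samples changed which members had low p values, and members moved in both directions. Without wild type replicate 3 the members' median log2 fold change was 0.06 (0.0083 over all genes), and 6 members had an unadjusted p under 0.05, which is 8.96% of members against 7.84% of all genes. These were Epha2, Ephb1, Ephb2, Ntn1, Robo1 and Unc5b, all with higher estimates. Without wild type replicate 2 the median was -0.11 (-0.025 over all genes), and 7 members had an unadjusted p under 0.05, or 10.4% against 11.6% of all genes. Efna4, Efnb1 and Slit1 were then lower, and Nrp1, Sema3a, Sema3c and Unc5c higher. Without wild type replicate 1 only Epha8 had an unadjusted p under 0.05, where 3.16% of all genes did. Without Tmem216-/- replicate 1 there were 3 such members, Dcc, Efna3 and Unc5b, where 4.59% of all genes were. Without Tmem216-/- replicate 2 or 3 there were 0, where 2.75% and 2.76% of all genes were. The shares of members are near those of all genes, and the lowest adjusted p of any member in any fit run was 0.411.

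The groups did not overlap for 5 of the 67 members, which is 7.46%, against 9.57% of all genes tested. The 5 were Unc5b, Unc5c, Epha2, Efna5 and Plxnc1, and in each every Tmem216-/- sample lay above every wild type sample. For that direction alone the share over all genes was 4.75%. An exact two-sided permutation test gave each of the 5 a p of 0.1, the smallest that 3 against 3 samples can give. Groups that do not overlap always give that p, so it adds nothing to the separation itself. No member had every Tmem216-/- sample below every wild type sample, as 4.83% of all genes did. With 5 samples the groups separate more often. Without wild type replicate 1, 2 or 3 the groups of 9, 22 and 14 members did not overlap, where 15%, 32.8% and 23.3% of all genes did not. Without Tmem216-/- replicate 1, 2 or 3 the numbers were 14, 6 and 6 members, against 20.5%, 14.2% and 14.2% of all genes.

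The start regions of 3 members are printed: Unc5b and Epha2, whose groups did not overlap, and Epha5, which stood out in a single sample. They are the 250 bases before the RefSeq gene start in GRCm38.p6, which is the mm10 assembly, written 5′ to 3′ on the strand of the gene, and capitals mark the GC box GGGCGGG or its complement. Unc5b lies on the minus strand at chr10:60831582-60831831, Epha2 on the plus strand at chr4:141300971-141301220 and Epha5 on the minus strand at chr5:84417383-84417632, and all 3 windows are outside the GENCODE gene they precede.
Unc5b: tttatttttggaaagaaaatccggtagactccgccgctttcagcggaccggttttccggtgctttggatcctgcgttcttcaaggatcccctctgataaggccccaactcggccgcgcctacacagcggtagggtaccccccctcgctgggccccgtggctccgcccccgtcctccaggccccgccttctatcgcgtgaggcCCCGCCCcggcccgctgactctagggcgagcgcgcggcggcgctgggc
Epha2: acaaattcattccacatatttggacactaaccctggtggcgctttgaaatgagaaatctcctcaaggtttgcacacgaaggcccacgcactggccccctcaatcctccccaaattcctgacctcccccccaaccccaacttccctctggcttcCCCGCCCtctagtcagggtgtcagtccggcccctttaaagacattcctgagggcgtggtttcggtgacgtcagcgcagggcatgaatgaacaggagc
Epha5: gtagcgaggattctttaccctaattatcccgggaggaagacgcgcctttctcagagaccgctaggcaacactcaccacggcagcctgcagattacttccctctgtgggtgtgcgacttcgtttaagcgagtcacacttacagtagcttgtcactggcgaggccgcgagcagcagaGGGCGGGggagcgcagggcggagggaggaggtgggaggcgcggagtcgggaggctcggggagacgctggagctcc

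Each of the 3 windows holds 1 GC box. RefSeq start regions (250 bases before to 50 after the start, 300 in all) were matched by symbol for 57 members and 11308 genes tested. The GC box on either strand was in at least 1 start region of 41 of the 57 members, or 71.9%, and of 51.3% of the genes tested. The median GC content was 64.7% for the members' regions and 60.7% for those of the genes tested. The TATA box letters TATAAA, on either strand, were in 2 of 57, Efnb2 and Slit2, or 3.51%, against 8.97%. The Gli site letters TGGGTGGTC, on either strand, were in 0 of 57 members' regions and in 0.239% of the genes tested, which says only that these letters are not in these windows. Each motif was counted by itself, and matches are a description of sequence. The members with no start region were Dcc, Efnb3, Ntn1, Plxna1, Plxna4, Sema3b, Sema3f, Sema6a, Slit1 and Unc5d.

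Of the netrin ligands, Ntn1, the floor plate attractant of commissural axons (chromosome 11, 68209364 to 68400823), was the most abundant. It was 43.5, 46.05 and 39.99 TPM in Tmem216-/- and 35.1, 35.7 and 69.2 TPM in wild type. The Tmem216-/- values lay between the wild type ones, above replicates 1 and 2 and below replicate 3. The log2 fold change was -0.04 (95% interval -0.66 to 0.58). It was 0.28 without wild type replicate 3 and -0.19 without wild type replicate 2 (limma unadjusted p = 0.0201 and 0.515). In the fit without wild type replicate 3, 7.84% of all genes had a limma unadjusted p under 0.05. Ntn3 was 15.9 ± 0.63 TPM in Tmem216-/- and 17.0 ± 1.73 TPM in wild type (SD, n = 3 each), and shares 89 exonic bases on the same strand with Tbc1d24, so reads there cannot be told apart. Ntn4, a basement membrane netrin, was 6.75 ± 1.02 TPM and 5.67 ± 0.48 TPM.

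The netrin receptors Dcc, Unc5b and Unc5c had higher estimates in Tmem216-/- by similar amounts, and none passed the test. Unc5b, a repulsive netrin receptor that is also present on endothelial cells (chromosome 10, 60762593 to 60831581), was 18.9, 20.1 and 24.0 TPM in Tmem216-/- and 17.1, 15.2 and 17.8 TPM in wild type. Its groups did not overlap, and the log2 fold change was 0.31 (SE 0.13, 95% interval -0.0028 to 0.62, limma unadjusted p = 0.0516, adjusted p = 0.983). Unc5c, a repulsive receptor of neurons (chromosome 3, 141465216 to 141834924), was 13.6, 13.2 and 15.02 TPM in Tmem216-/- and 11.5, 12.02 and 10.3 TPM in wild type. Here too the groups did not overlap, with a log2 fold change of 0.28 (SE 0.12, limma unadjusted p = 0.0558, adjusted p = 0.983).

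Dcc, the receptor for attraction to netrin, was 16.8, 21.9 and 20.3 TPM in Tmem216-/- and 16.9, 14.8 and 14.9 TPM in wild type. The lowest Tmem216-/- value was just under the highest wild type value, so the groups overlapped by 1 pair of samples. Its log2 fold change was 0.32 (SE 0.14, limma unadjusted p = 0.0533, adjusted p = 0.983). The 6 fits that each lack 1 sample gave estimates from 0.21 to 0.38 for Unc5b and from 0.22 to 0.33 for Unc5c. Groups that do not overlap keep the sign of their difference without any 1 sample, so those signs add nothing to the separation. For Dcc, whose groups overlapped, the estimate ran from 0.24 to 0.42. The lowest adjusted p under any setting was 0.476 for Unc5b, 0.423 for Unc5c and 0.473 for Dcc. Of 10 endothelium markers 9 had higher estimates, none was listed at 0 and none passed. They summed to 191, 224 and 193 TPM in Tmem216-/- and 178, 170 and 188 TPM in wild type. The groups of 4 did not overlap, all higher, against 4.75% of all genes in that direction. A limma unadjusted p under 0.05 was reached by 1, Tek, against 4.46% of all genes. Robo4 and Plxnd1, also given here as endothelial, had log2 fold changes of -0.10 and -0.09. The part of the endothelium markers in Unc5b was not tested.

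The remaining netrin receptors had estimates nearer 0 or below it. Neo1, which binds netrins and repulsive guidance molecules, was the most abundant receptor of this system, at 60.7, 59.2 and 58.0 TPM in Tmem216-/- and 58.7, 49.4 and 72.9 TPM in wild type. All 3 Tmem216-/- values lay inside the wild type range, and the log2 fold change was -0.01 (95% interval -0.35 to 0.34). Unc5a was 3.19 ± 0.41 TPM in Tmem216-/- and 3.61 ± 1.19 TPM in wild type, a log2 fold change of -0.11. Unc5d, near the level filter, was 1.56 ± 0.19 TPM and 1.52 ± 0.22 TPM, a log2 fold change of 0.03. Summed over the 4 Unc5 genes, the level was 37.5, 37.4 and 44.1 TPM in Tmem216-/- and 33.6, 31.2 and 34.6 TPM in wild type. Most of that sum was Unc5b and Unc5c, whose groups did not overlap, so its separation restates theirs and is no separate result for the family.

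**Figure D3:**
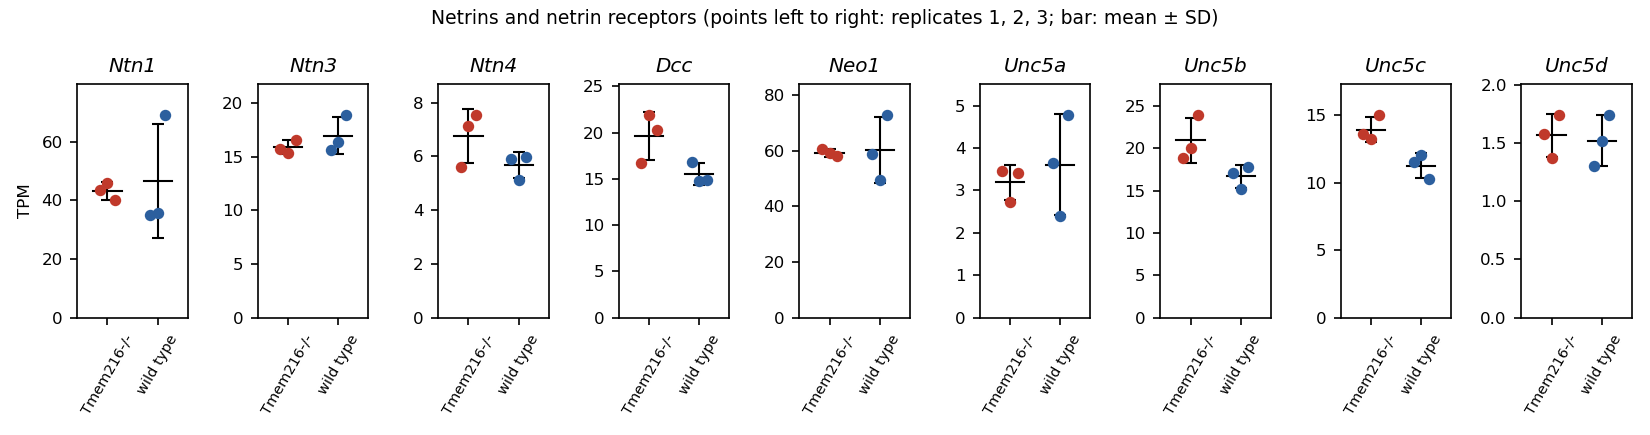
TPM of 3 netrins and 6 netrin receptors in each sample, Tmem216-/- left of wild type in every panel; points run from replicate 1 to 3 and bars give the mean ± SD (n = 3 each). The groups do not overlap for Unc5b and Unc5c, while wild type replicate 3 stands above all other samples for Ntn1, Ntn3, Neo1 and Unc5a.

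Among the Slit ligands, which repel axons at the midline through Robo receptors, Slit2 was the most abundant and Slit1 varied most. Slit2 was 27.2, 20.9 and 21.6 TPM in Tmem216-/- and 18.0, 22.1 and 24.4 TPM in wild type, so the groups overlapped (log2 fold change 0.11, 95% interval -0.27 to 0.49). Slit1, a Slit of the nervous system (chromosome 19, 41600257 to 41743665), was 8.74, 9.85 and 7.68 TPM in Tmem216-/- and 12.7, 7.73 and 23.3 TPM in wild type. Wild type replicate 3 was far above the other samples, and wild type replicate 2 lay among the Tmem216-/- values. Slit1 had the lowest log2 fold change of the 67 members, at -0.55 (SE 0.36, limma unadjusted p = 0.166, adjusted p = 0.983). It was -0.17 without wild type replicate 3 and -0.91 without wild type replicate 2 (limma unadjusted p = 0.485 and 0.0143). Slit3 differed little between samples, at 14.7 ± 0.23 TPM in Tmem216-/- and 14.5 ± 1.67 TPM in wild type.

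Robo1, a main Slit receptor, was the most abundant Robo, at 52.7, 56.8 and 58.3 TPM in Tmem216-/- and 48.5, 41.3 and 54.1 TPM in wild type. Only Tmem216-/- replicate 1 fell under the highest wild type value, and the log2 fold change was 0.22 (95% interval -0.06 to 0.51, limma unadjusted p = 0.101). Robo3, which lets commissural axons cross the midline, was 28.7, 40.02 and 33.3 TPM in Tmem216-/- and 34.1, 27.1 and 58.4 TPM in wild type. Its log2 fold change was -0.16 (95% interval -0.83 to 0.51) and turned to 0.14 without wild type replicate 3. Robo2 was 24.8 ± 0.32 TPM in Tmem216-/- and 25.3 ± 2.95 TPM in wild type, and Robo4, the endothelial Robo that lies beside Robo3 on chromosome 9, was 5.39 ± 0.71 TPM and 5.84 ± 0.26 TPM.

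The semaphorins were the largest family, with 20 of 20 genes over the filter, 9 with higher and 11 with lower estimates and a median log2 fold change of -0.05. There were 12 higher and 8 lower, with a median of 0.05, without wild type replicate 3. Their most abundant member was Sema6c, a transmembrane semaphorin, at 61.8, 64.3 and 56.1 TPM in Tmem216-/- and 65.4, 52.4 and 96.7 TPM in wild type. Wild type replicate 3 stood above the other 5 samples, and the log2 fold change was -0.19 (95% interval -0.70 to 0.33). Summed over the 13 members of classes 4 to 7, which are held at the membrane, the level was 271, 267 and 254 TPM in Tmem216-/- and 270, 237 and 356 TPM in wild type. Of these 13, 10 had lower and 3 higher estimates, and wild type replicate 3 held the highest value of 9. Without that sample the tally turned to 4 lower and 9 higher.

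Sema7a, the membrane-anchored ligand of Plxnc1, was 8.36, 11.3 and 11.04 TPM in Tmem216-/- and 11.3, 6.09 and 20.9 TPM in wild type. All Tmem216-/- values lay inside the wild type range, and the log2 fold change was -0.16 (95% interval -1.09 to 0.78). Sema4d, a ligand of Plxnb1, was 7.25, 5.79 and 5.31 TPM in Tmem216-/- and 7.75, 7.38 and 6.83 TPM in wild type. Its groups overlapped only at Tmem216-/- replicate 1, and it had the third lowest log2 fold change of the members, -0.23 (limma unadjusted p = 0.183). The other membrane semaphorins averaged over all samples from 4.21 TPM for Sema4f to 41.6 TPM for Sema4c, with Sema5b at 34.7, Sema6a at 24.9, Sema4g at 23.8, Sema6d at 22.7, Sema5a at 14.4, Sema4a at 8.91, Sema4b at 8.59 and Sema6b at 7.49 TPM.

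Of the secreted class 3 semaphorins, wild type replicate 3 held the highest value of 2 of 7. Their summed level was 89.7, 79.5 and 80.6 TPM in Tmem216-/- and 78.0, 84.0 and 79.8 TPM in wild type, and 6 of 7 had higher estimates in Tmem216-/-, but 3 of 7 without wild type replicate 3. Sema3f, a repellent that acts through Nrp2, made up most of it, at 50.4 ± 5.52 TPM in Tmem216-/- and 51.5 ± 6.74 TPM in wild type. Sema3a, a repellent that acts through Nrp1 (chromosome 5, 13125414 to 13602565), was 11.6, 10.9 and 10.9 TPM in Tmem216-/- and 8.19, 12.6 and 5.88 TPM in wild type. Wild type replicates 1 and 3 lay below all Tmem216-/- values and wild type replicate 2 above them, with a log2 fold change of 0.35 (95% interval -0.24 to 0.94, limma unadjusted p = 0.203). The log2 fold change of Sema3a was 0.12 without wild type replicate 3 and 0.61 without wild type replicate 2 (limma unadjusted p = 0.559 and 0.0115).

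Sema3c, a guide of neural crest cells and outflow tract vessels, was 8.42, 8.36 and 7.70 TPM in Tmem216-/- and 6.35, 10.97 and 3.70 TPM in wild type. Sema3d was 2.82, 2.78 and 3.24 TPM in Tmem216-/- and 2.60, 5.63 and 1.55 TPM in wild type. In both the wild type samples enclosed the Tmem216-/- ones, and the log2 fold changes were 0.30 and 0.00 with 95% intervals of -0.48 to 1.08 and -0.82 to 0.83. They were -0.035 for Sema3c and -0.31 for Sema3d without wild type replicate 3, and 0.64 and 0.38 without wild type replicate 2. Sema3b averaged 4.27 ± 0.84 TPM in Tmem216-/- and 4.09 ± 0.24 TPM in wild type, and Sema3g, a semaphorin of arteries, 5.19 ± 0.42 TPM and 4.68 ± 1.09 TPM.

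Of the plexins, the semaphorin receptors, 7 of 8 had lower estimates, with a median log2 fold change of -0.10, and none of them passed. That direction rested on wild type replicate 3, without which 7 of 8 had higher estimates, with a median of 0.050; leaving out wild type replicate 2 gave -0.19. Plxnb2, a receptor for class 4 semaphorins (chromosome 15, 89155549 to 89180788), was the most abundant of all members, at 171, 161 and 151 TPM in Tmem216-/- and 160, 155 and 219 TPM in wild type. Wild type replicate 3 was above all other samples, and the log2 fold change was -0.13 (95% interval -0.48 to 0.22). The plexin with a higher estimate was Plxnc1, at 7.05, 6.16 and 6.34 TPM in Tmem216-/- and 5.44, 6.09 and 6.04 TPM in wild type. Its groups did not overlap by a margin of 0.07 TPM, and the log2 fold change was 0.13 (SE 0.14, limma unadjusted p = 0.368).

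The other plexins averaged over all samples 71.9 TPM for Plxnb1, 61.1 TPM for Plxnd1, a plexin of endothelial cells, 57.7 TPM for Plxna1, 37.9 TPM for Plxna3, 19.1 TPM for Plxna2 and 6.76 TPM for Plxna4. Their log2 fold changes ran from -0.11 to -0.04, and all but that of Plxna3 were above 0 without wild type replicate 3. The class A plexins signal for class 3 semaphorins together with neuropilins. Nrp2, the more abundant neuropilin, was 54.8, 50.9 and 53.4 TPM in Tmem216-/- and 52.2, 48.3 and 59.0 TPM in wild type, with a log2 fold change of -0.00023 (95% interval -0.24 to 0.24). Nrp1 was 22.2 ± 1.77 TPM in Tmem216-/- and 19.99 ± 5.45 TPM in wild type (log2 fold change 0.17).

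**Figure D4:**
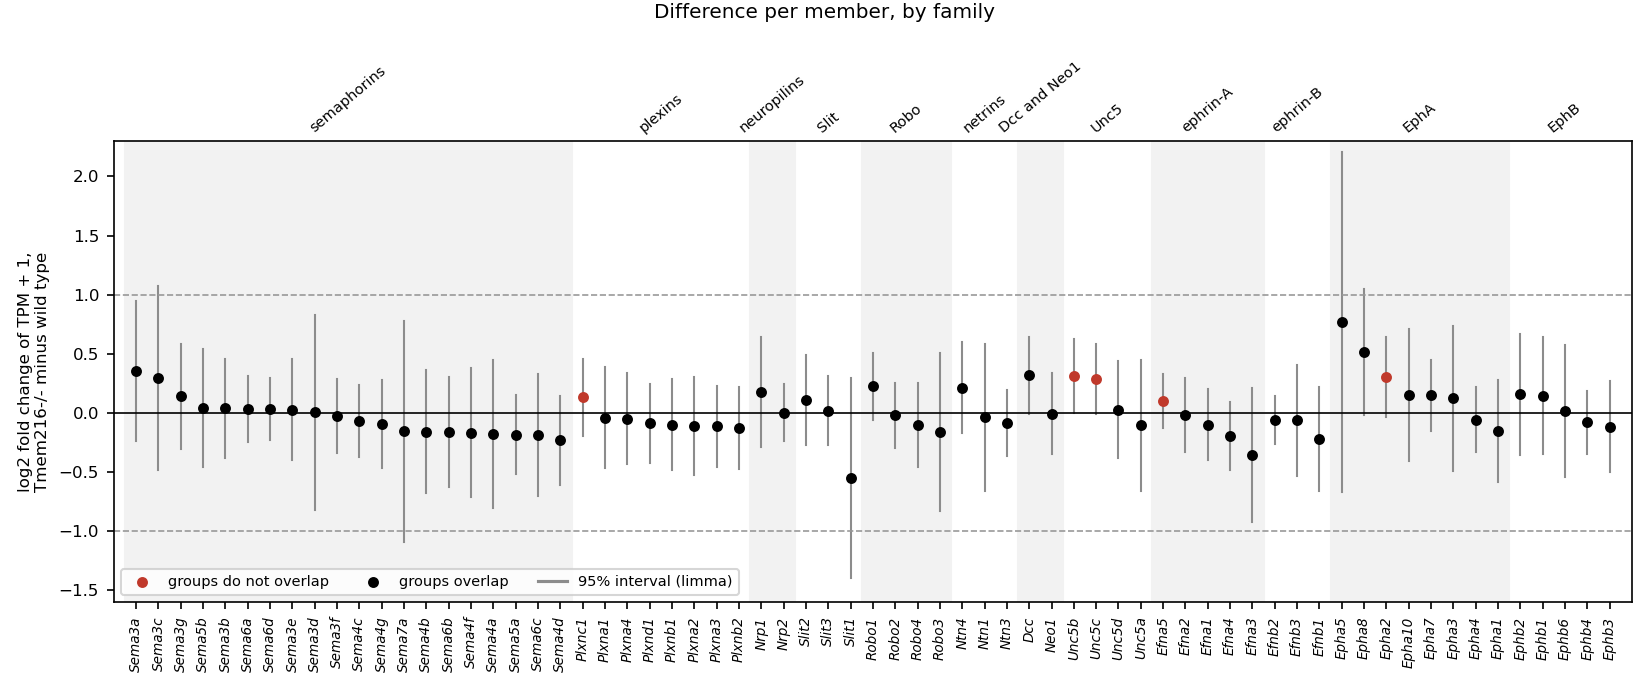
Log2 fold change of TPM + 1, Tmem216-/- minus wild type, for each member with its 95% interval from limma, grouped by family; dashed lines mark a 2-fold change and red points the 5 members whose groups do not overlap. The estimates lie between -0.55 for Slit1 and 0.77 for Epha5, and the intervals of Sema3c, Sema7a, Slit1, Epha5 and Epha8 cross a dashed line.

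Ephrin-A ligands, which are held at the membrane by a lipid anchor, had 4 of 5 lower estimates and a median log2 fold change of -0.10, which was -0.023 without Tmem216-/- replicate 1 and -0.031 without wild type replicate 3. Efna2, the most abundant, was 39.5, 38.8 and 45.1 TPM in Tmem216-/- and 41.5, 36.1 and 48.4 TPM in wild type, with the Tmem216-/- values inside the wild type range. Efna3 was 16.8, 8.79 and 12.7 TPM in Tmem216-/- and 13.5, 17.5 and 17.7 TPM in wild type. Tmem216-/- replicates 2 and 3 lay below all wild type samples and replicate 1 among them, with a log2 fold change of -0.36 (95% interval -0.93 to 0.21, limma unadjusted p = 0.176). Efna4 and Efna1, which lie with Efna3 in a stretch of chromosome 3 from 89271733 to 89338028, were 31.6 ± 1.46 TPM in Tmem216-/- and 36.5 ± 4.78 TPM in wild type, and 16.5 ± 1.57 TPM and 17.8 ± 1.598 TPM.

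Efna5, a repellent in topographic maps (chromosome 17, 62604184 to 62881317), was 20.6, 22.0 and 20.7 TPM in Tmem216-/- and 19.7, 19.0 and 20.2 TPM in wild type. Its groups did not overlap, but the difference was small, a log2 fold change of 0.10 (SE 0.10, 95% interval -0.13 to 0.33, limma unadjusted p = 0.344).

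Ephrin-B ligands, which span the membrane, had lower estimates in 3 of 3 and a median log2 fold change of -0.06. The median was -0.25 without wild type replicate 2 and -0.014 without wild type replicate 3, where Efnb3 turned to 0.15. Efnb1, an X-linked gene of cell sorting at boundaries, was 69.3, 67.9 and 69.3 TPM in Tmem216-/- and 76.7, 63.0 and 107 TPM in wild type. The 3 Tmem216-/- samples were nearly level and inside the wild type range, and the log2 fold change was -0.22 (95% interval -0.66 to 0.22). Without wild type replicate 3 the log2 fold change of Efnb1 was -0.01. Efnb2 was 45.1 ± 1.42 TPM in Tmem216-/- and 47.1 ± 2.48 TPM in wild type, with the narrowest interval of the members, -0.26 to 0.14, and Efnb3 was 57.5 ± 1.55 TPM and 61.8 ± 17.9 TPM.

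EphA receptors had higher estimates in 6 of 8 and a median log2 fold change of 0.15, which was 0.091 without Tmem216-/- replicate 1, 0.24 without Tmem216-/- replicate 2 and 0.23 without wild type replicate 2. Epha4, a receptor that binds both ephrin classes, was the most abundant, at 32.5, 30.4 and 26.6 TPM in Tmem216-/- and 30.6, 33.7 and 29.0 TPM in wild type. The groups overlapped, with a log2 fold change of -0.06 (95% interval -0.34 to 0.22). Epha2, a receptor of epithelia (chromosome 4, 141301240 to 141329384), was 6.37, 7.05 and 6.78 TPM in Tmem216-/- and 5.12, 4.86 and 5.91 TPM in wild type. Its groups did not overlap, and the log2 fold change was 0.30 (SE 0.14, 95% interval -0.04 to 0.64, limma unadjusted p = 0.0745, adjusted p = 0.983). In the 6 fits that each lack 1 sample it lay between 0.25 and 0.37. With groups that do not overlap it could not fall below 0 there.

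Epha5, a neuronal receptor for ephrin-A ligands (chromosome 5, 84054761 to 84417382), was 26.3, 5.04 and 4.39 TPM in Tmem216-/- and 4.57, 5.48 and 3.95 TPM in wild type. Tmem216-/- replicate 1 was 4.80 times the next highest sample, and the other 5 samples were close together. The log2 fold change of 0.77 (SE 0.60, limma unadjusted p = 0.243) was the highest of the members and rested on that sample; without it the log2 fold change was 0.02 (limma unadjusted p = 0.929). Epha8 was 3.12, 3.88 and 4.07 TPM in Tmem216-/- and 3.25, 1.65 and 2.11 TPM in wild type, so that Tmem216-/- replicate 1 lay under wild type replicate 1. Its log2 fold change was 0.51 (95% interval -0.02 to 1.05, limma unadjusted p = 0.0567, adjusted p = 0.983).

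Epha3 was 22.3 ± 4.09 TPM in Tmem216-/- and 21.0 ± 7.07 TPM in wild type, and Epha7 was 17.4 ± 0.57 TPM and 15.7 ± 1.89 TPM. Epha10 averaged 4.98 TPM over all samples and Epha1 3.09 TPM; 236 exonic bases of Epha1 overlap Zyx on the opposite strand, a gene at 95.7 TPM, and whether counting used strand is not given in the sources used here.

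EphB receptors, which bind ephrin-B ligands, had a median log2 fold change of 0.02, and wild type replicate 3 was the highest sample for 5 of 5. The median was 0.20 without that sample, -0.17 without wild type replicate 2, -0.038 without Tmem216-/- replicate 1 and -0.11 with the sex covariate. Ephb4, the vein receptor for Efnb2, was the most abundant, at 64.7, 61.1 and 63.3 TPM in Tmem216-/- and 66.0, 58.8 and 76.5 TPM in wild type. The Tmem216-/- samples lay inside the wild type range, and the log2 fold change was -0.08 (95% interval -0.35 to 0.19). Ephb2 was 54.9 ± 4.85 TPM in Tmem216-/- and 50.5 ± 15.6 TPM in wild type, Ephb3 27.7 ± 0.44 TPM and 30.7 ± 6.91 TPM, and Ephb1 19.3 ± 2.16 TPM and 17.8 ± 5.28 TPM. Ephb6, which has no kinase activity, was 11.9 ± 0.89 TPM in Tmem216-/- and 12.1 ± 3.83 TPM in wild type.

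Genes that carry the guidance signal inside the growth cone did not pass as single genes either. Of 57 tested genes of downstream signalling, such as exchange factors and collapsin response proteins, 0 passed limma over all genes, against 0.104% of all genes, with 26 higher and 31 lower estimates, 2 at an unadjusted p under 0.05 (4.46% of all genes) and a median log2 fold change of -0.01. The tally was 42 higher and 15 lower without wild type replicate 3, and without wild type replicate 2 it was 16 and 41. The groups of 2 of the 57 did not overlap, both higher, where 9.57% of all genes did not. The smallest p was that of Mical2, an actin-oxidising enzyme of semaphorin signalling that is also active in muscle. It was 7.57, 12.7 and 9.99 TPM in Tmem216-/- and 2.57, 4.29 and 2.45 TPM in wild type, and the groups did not overlap. The log2 fold change of Mical2 was 1.43 (SE 0.25, limma unadjusted p = 0.000838, adjusted p = 0.205), larger than that of any axon guidance member. The heart muscle markers given above were higher in the same samples, and their part in Mical2 was not tested.

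Vav3, a guanine nucleotide exchange factor used by Eph receptors, was 7.06 ± 0.97 TPM in Tmem216-/- and 5.11 ± 0.34 TPM in wild type (log2 fold change 0.39, limma adjusted p = 0.983). Of 37 further guidance cues, adhesion molecules and receptors outside the 4 systems, 0 passed, where 0.104% of all genes did, with 24 higher and 13 lower estimates, 1 at an unadjusted p under 0.05 (4.46% of all genes) and a median log2 fold change of 0.05. The groups of 4 of the 37 did not overlap, 3 higher and 1 lower, where 9.57% of all genes did not. The tally was 17 higher and 20 lower without wild type replicate 2 (median -0.050), and 29 and 8 without wild type replicate 3 (median 0.15). Alcam, an axon adhesion molecule, was 51.3 ± 5.49 TPM in Tmem216-/- and 41.0 ± 5.40 TPM in wild type (log2 fold change 0.32, limma adjusted p = 0.983). Fzd3, a Wnt receptor of axon guidance, was 22.2 ± 1.59 TPM and 17.4 ± 2.83 TPM (0.35), and Gpc1, a heparan sulphate proteoglycan that binds Slits, was 67.1 ± 5.18 TPM and 85.2 ± 19.3 TPM (-0.32).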

How the data were processed

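RNA sequencing of 3 Tmem216-/- and 3 wild type samples gave 1 table of TPM per gene, deposited by the authors; per the submitters' processing notes the tools were CASAVA 1.8, HISAT2, StringTie and RSEM, with genome mm10. Depth is unknown, since TPM carries no read numbers, so no count model or counting interval was used. The 2 further columns equal the group means and were left out.

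The 16411 genes that reached 1 TPM in 3 or more samples were tested on log2(TPM + 1) with limma 3.58.1 (lmFit, eBayes with a trend, two-sided, R 4.3.3), and p values were adjusted by Benjamini and Hochberg over all of them. The pseudocount understates fold changes of low genes. Exact two-sided permutation tests of single genes enumerated all 20 assignments (scipy 1.17.1). The members, the gene lists and the rule for genes given per sample (the highest member of each family, groups that do not overlap, the largest rises, falls and spreads) were chosen with earlier results of these data known. Robo3, Nrp1 and other members outside that rule were named after their values were seen. A signalling gene that the rule names is not reported here. Whether counting used strand is not given in the sources used here. Coordinates are GENCODE M21 (GRCm38). The scripts were tested on simulated data.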

Additional observations from a re-analysis of the deposited data

How the results depend on the processing

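No member passed in any of the 17 alternatives, whose lowest adjusted p was 0.411. Over all genes 17 passed with all samples, 0 to 27 without 1 sample, and 0 with no filter. Tmem216 had log2 fold changes from -3.81 to -3.25 without 1 sample, and missed the threshold with a pseudocount of 0.1 (-4.31), no filter (-3.55) and the sex covariate (-3.56). Without 1 sample, 0 to 7 members had an unadjusted p under 0.05 and the groups of 6 to 22 members did not overlap; these counts, and the tallies of families and marker lists under each fit, were added after seeing the data. The netrin median ran from -0.14 to 0.25 without 1 sample (0.25 without wild type replicate 3) and the EphA median from 0.091 (without Tmem216-/- replicate 1) to 0.24. The Unc5 median was 0.30 with a filter at 5 TPM, which leaves fewer members.

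Of 509 values of named genes under the alternatives, 21 changed sign and 0 changed their call. Nrp2 was 0.0070 with median-of-ratios scaling, 0.019 with quantile normalization and 0.012 without haemoglobin, mitochondrial and ribosomal RNA genes, and Neo1 was 0.020 with quantile normalization and 0.0053 without those genes. The other changes of sign of these genes came from leaving out 1 sample, where log2 fold changes ran from -0.12 to 0.084 for Efna2, -0.20 to 0.28 for Ntn1, -0.066 to 0.076 for Nrp2, -0.12 to 0.018 for Epha4, -0.17 to 0.016 for Ephb4, -0.0075 to 0.20 for Slit2, -0.14 to 0.14 for Neo1, -0.22 to 0.031 for Plxnb2, -0.39 to 0.051 for Sema6c and -0.56 to 0.25 for Sema7a.

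Replicate numbers were not taken as pairs: deviations of same-numbered samples correlated at 0.016, -0.093 and 0.10, and not every sample correlated best with its own number. The fit with the replicate block called 0 members and 25 genes in all.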

Other observations

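Sema3a, Sema3c, Sema3d and Sema3e lie in a stretch of 5.35 megabases of chromosome 5 (12383385 to 17730268 in mm10), and all 4 had the wild type order replicate 2, then 1, then 3. The stretch was looked at after that order had been seen. Of the 6 other tested genes inside it, 5 had the same order, against 26.8% of all genes tested. Those 6 include Hgf, the ligand of Met, the calcium channel subunit gene Cacna2d1 and the presynaptic gene Pclo.

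Other genes were also high in the sample where Epha5 was high. With a rule set after its values were seen, at least 5 TPM in 1 sample and at least 3 times every other sample, 22 of 16411 genes stood out in Tmem216-/- replicate 1, and Epha5 was the only member among them. The same rule found 8 and 4 genes in Tmem216-/- replicates 2 and 3 and 36, 16 and 13 genes in wild type replicates 1, 2 and 3, with no member. Larp1b, an RNA-binding protein gene, was 35.7, 4.31 and 4.10 TPM in Tmem216-/- and 4.84, 5.99 and 4.48 TPM in wild type. Ggta1, a galactosyltransferase gene, was 38.3, 9.23 and 9 TPM in Tmem216-/- and 9.34, 10.2 and 6.73 TPM in wild type.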
